A study of Mus musculus with 4 samples.

Results

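The transcripts described here encode the machinery that fills, docks, primes, fuses and retrieves synaptic vesicles, measured in the prelimbic cortex of adult male mice. The list holds 41 named genes, of 18193 genes with a named probe set on the array. They were taken by symbol from probe sets annotated to 1 gene, which gave 96 of 34945 such probe sets. Each gene was read from its brightest probe set, by the mean of the 4 arrays, and the 55 further probe sets of 28 members served as a check. The tested animals had been exposed to fluoxetine, a selective serotonin reuptake inhibitor, before birth and were sampled as males on postnatal day 90 (2 arrays). The controls were untreated males of the same age (2 arrays). Tissue was punched from the medial prefrontal cortex. The submitters describe the samples of a group as biological duplicates. Strain, dose, the days of exposure and the number of mice behind each array are not given in the sources used here.

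Transmitter is released when a vesicle that has docked at the active zone fuses with the presynaptic membrane. Vesicle synaptobrevins (Vamp1, Vamp2) zip together with syntaxin and Snap25 at the membrane into a SNARE complex, complexins clamp and promote fusion, and synaptotagmins trigger it when calcium enters. Rab3, Rim, Munc13, Bassoon and Piccolo organise docking and priming, NSF and its SNAP adaptors take spent SNARE complexes apart, and dynamin, amphiphysin and synaptojanin return membrane to the terminal. In cortex many of these proteins serve both excitatory and inhibitory terminals, and the vesicular glutamate transporters are among the exceptions.

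The values were log2 intensities per probe set, so that a difference of 1 is a 2-fold change. The correlation was 0.9972 for the fluoxetine pair of arrays, 0.9963 for the untreated pair and 0.9957 to 0.997 for pairs across groups. General neuron markers averaged 12.54 and 12.51 on the fluoxetine arrays and 12.45 and 12.51 on the untreated arrays, and cortical excitatory markers 10.84 and 10.76 against 10.77 and 10.69. Untreated replicate 2 stood apart on 2 marker lists. The 11 measured of 13 striatal markers averaged 8.90 and 9.21 with fluoxetine and 9.05 and 10.09 without, and the 9 measured of 10 oligodendrocyte markers 11.12 and 11.10 against 11.10 and 11.39. An exact two-sided permutation test of 2 arrays against 2 cannot give a p below 0.333, so that single genes were tested with limma over all genes.

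As read by the brightest probe sets, transcripts of the release machinery differed little between adults exposed to fluoxetine before birth and untreated mice. The median log2 difference over the 41 members was 0.0027, against −0.02 over all genes and 0.0031 over the 9096 genes above the median level of 7.87, a class that held 39 members. Of the members, 22 had a positive and 19 a negative difference, and 35 lay within 0.10 of 0 (85.4%, against 74.9% of genes above the median level). None passed an adjusted p of 0.05 (limma with Benjamini-Hochberg adjustment, lowest 0.708), and over all genes 0.0% did. At an unadjusted p below 0.05, 1 member was higher (Rab3a) and 0 were lower, where the shares of all genes were 3.45% and 3.51%, and those of genes above the median level 5.73% and 2.17%. Over all genes these calls numbered 628 and 638. They were 573 and 1113 after another quantile normalization and 846 and 431 after subtracting array medians. Both fluoxetine arrays lay above both untreated arrays for 5 members and below them for 5, which are 12.2% each. Among genes above the median level the shares were 21.8% and 16.9%. In bulk tissue, fewer cells of a type and less RNA per cell cannot be told apart.

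**Figure D1:**
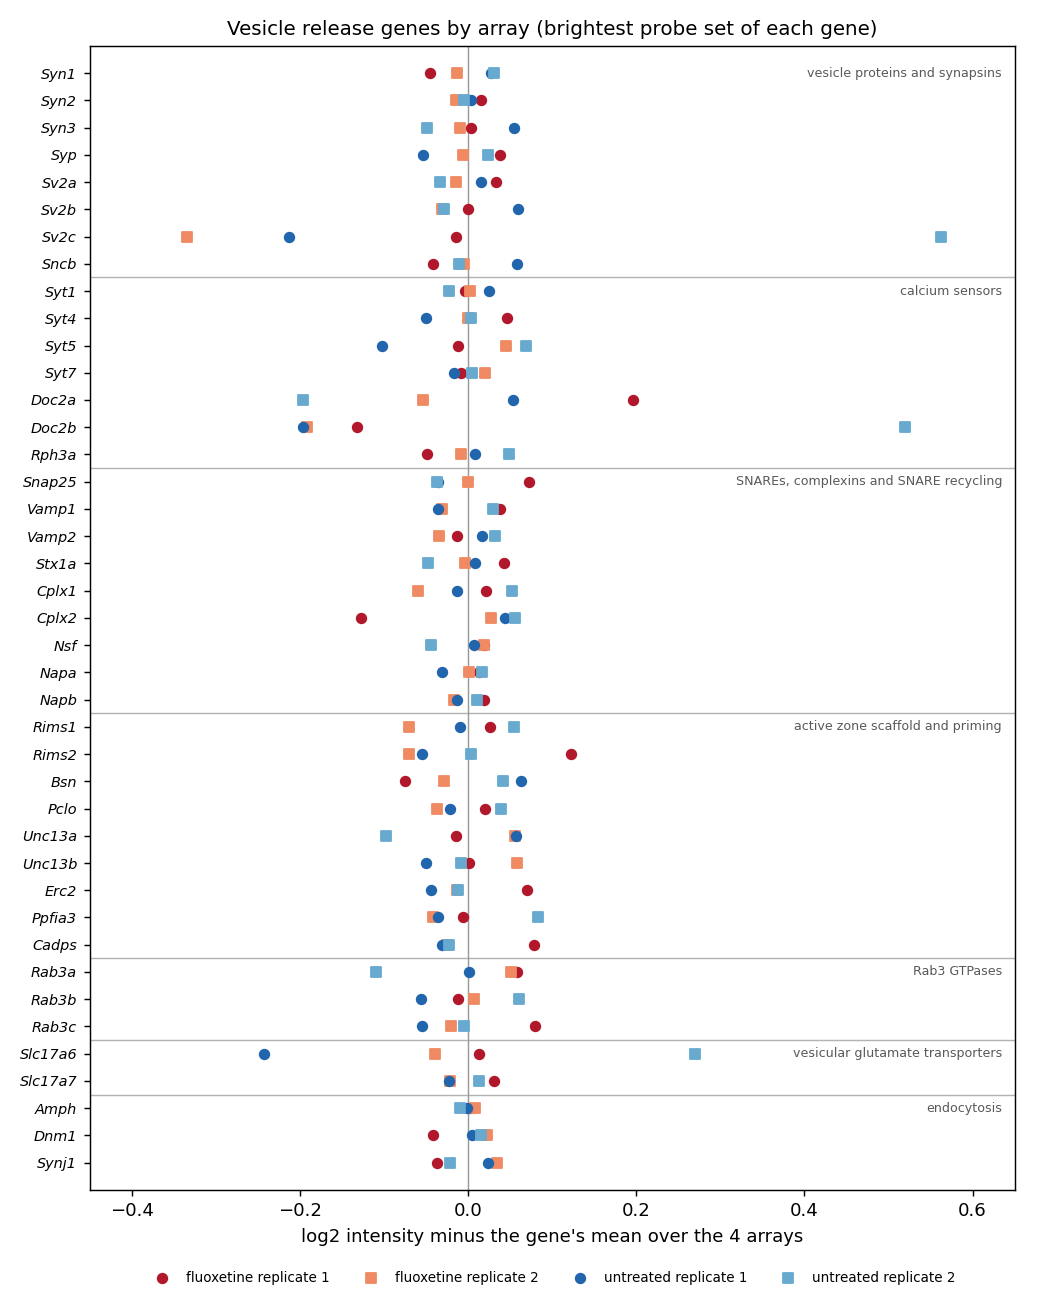
Log2 intensity of each of the 41 members on each array, minus that gene's mean over the 4 arrays, from its brightest probe set. Red marks are the 2 fluoxetine arrays and blue marks the 2 untreated arrays; genes are ordered by role, and most lie within 0.10 of their mean, with untreated replicate 2 far to the right for Sv2c, Doc2b and Slc17a6.

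Promoters are shown for 3 members, because they carry motifs of factors that follow neuronal activity or set neuronal identity. RefSeq promoter windows (GRCm38.p6, the bases around each annotated start) were held for 32 of the 41 members. On both strands, the cAMP response element TGACGTCA lay in windows of 2 members, Syn1 and Napa, and of 2.03% of 27025 genes. TCAGCACC, the left part of the RE1 element bound by the neuronal repressor REST, lay in those of Syn1, Napa, Ppfia3 and Unc13a. Of the 27025 genes, 1.85% had it. GCGTGGGCG, an element bound by Egr factors, lay in the windows of Synj1 and Unc13a and of 0.707% of the 27025 genes. No 2 of these motifs overlap in the stretches printed, in which the motifs are in capitals (the RE1 part of Napa is on the reverse strand).
Syn1, chrX:20921045-20921168, minus strand: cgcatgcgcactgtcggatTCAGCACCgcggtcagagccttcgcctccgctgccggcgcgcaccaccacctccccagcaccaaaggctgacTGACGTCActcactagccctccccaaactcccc
Napa, chr7:16098444-16098580, plus strand: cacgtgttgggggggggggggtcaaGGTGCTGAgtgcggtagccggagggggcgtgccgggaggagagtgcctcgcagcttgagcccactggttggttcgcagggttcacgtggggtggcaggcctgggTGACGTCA
Synj1, chr16:91011197-91011281, minus strand: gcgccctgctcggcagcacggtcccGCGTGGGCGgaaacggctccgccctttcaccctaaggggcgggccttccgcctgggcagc
A match is a description of the letters and not of a bound site. The members that carry them had differences of −0.06 (Syn1), 0.01 (Napa), −0.0018 (Synj1), 0.04 (Unc13a) and −0.05 (Ppfia3).

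Vesicle proteins and synapsins had a median difference of −0.02 over 8 members, with 0 past an unadjusted p of 0.05. Syn1, a synapsin that tethers reserve vesicles to actin, read 11.60 and 11.63 with fluoxetine and 11.67 on both untreated arrays. Both fluoxetine arrays lay below both untreated arrays, by a gap of about the size of the spread within the fluoxetine group (log2 difference −0.06, SE 0.04, adjusted p = 0.768 by limma). Its relatives Syn2 and Syn3 differed by 0.0011 and −0.01. Syp, the abundant vesicle membrane protein synaptophysin, read 11.14 and 11.10 against 11.05 and 11.13, and Sncb, beta-synuclein, 11.57 and 11.60 against 11.67 and 11.60; in both genes the groups overlapped. The SV2 glycoproteins, which bind synaptotagmin, differed by 0.02 (Sv2a) and −0.03 (Sv2b). Sv2c, the form enriched in basal ganglia, had the most negative difference of all members, and 1 array carried it. It read 5.92 and 5.60 with fluoxetine and 5.72 and 6.50 without, a difference of −0.35 (SE 0.25, adjusted p = 0.769). Without untreated replicate 2 it was 0.04, and without untreated replicate 1 it was −0.74 (unadjusted p = 0.00849 by limma). That array was also the one with the high striatal markers, at 10.09 against 8.90 to 9.21 elsewhere, and the part of striatal tissue in the Sv2c value was not tested.

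Calcium sensors had a median of 0.01 over 7 members, with 0 past an unadjusted p of 0.05. Syt1, the fast sensor of synchronous release, read 14.11 and 14.12 with fluoxetine against 14.14 and 14.09 (difference −0.0020, SE 0.03). Syt7, the sensor of asynchronous release and facilitation, differed by 0.01, Syt4, a form induced by activity, by 0.05, and Syt5 by 0.03. Among the high-affinity double-C2 proteins, Doc2a, linked to spontaneous and asynchronous glutamate release, read 10.47 and 10.22 against 10.32 and 10.07. Its difference of 0.14 (SE 0.11) was the most positive of the list and smaller than the spread within each group. Doc2b read 6.99 and 6.93 with fluoxetine and 6.92 and 7.64 without (difference −0.32, SE 0.21, adjusted p = 0.748). It too was set by untreated replicate 2, without which the difference was 0.03; without untreated replicate 1 it was −0.68 (unadjusted p = 0.00118 by limma). Rph3a, rabphilin, a Rab3 effector with C2 domains, read 11.06 and 11.10 against 11.12 and 11.16, with no overlap between groups (difference −0.06, SE 0.05).

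The SNARE proteins, complexins and the factors that recycle them had a median of 0.0070 over 9 members, with 0 past an unadjusted p of 0.05. Snap25, the plasma membrane SNARE that gives 2 of the helices of the complex, read 14.53 and 14.45 with fluoxetine and 14.42 on both untreated arrays. Both fluoxetine arrays were higher, by a difference of 0.07 (SE 0.04, unadjusted p = 0.0760, adjusted p = 0.712 by limma). With each array left out, the unadjusted limma p ran between 0.0241 (without fluoxetine replicate 2) and 0.36 (without fluoxetine replicate 1, where the difference was 0.04), and it was 0.179 and 0.188 without untreated replicate 1 and 2. Stx1a, its syntaxin partner, differed by 0.04 and the synaptobrevins Vamp1 and Vamp2 by 0.01 and −0.05. Vamp2 read 12.44 and 12.42 against 12.47 and 12.48. The complexins Cplx1 and Cplx2 differed by −0.04 and −0.10. Cplx2 read 12.45 and 12.61 against 12.63 and 12.64, both fluoxetine arrays below, with a wider gap between the fluoxetine arrays than between fluoxetine replicate 2 and the untreated pair. Nsf, the ATPase that disassembles SNARE complexes, and its adaptors Napa and Napb (alpha- and beta-SNAP) differed by 0.04, 0.01 and 0.0027.

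Active zone scaffolds and priming factors had a median of 0.04 over 9 members, with 0 past an unadjusted p of 0.05. Bsn, the giant scaffold Bassoon, read 11.19 and 11.24 with fluoxetine and 11.33 and 11.31 without. Its groups did not overlap (difference −0.10, SE 0.05, unadjusted p = 0.0545, adjusted p = 0.711 by limma). The related scaffold Pclo, Piccolo, read 11.94 and 11.88 against 11.90 and 11.96 and overlapped between groups. Rims1 and Rims2, which tether calcium channels near vesicles, differed by −0.04 and 0.05. The priming factors Unc13a and Unc13b (Munc13) differed by 0.04 and 0.06, and Cadps, which primes dense-core vesicles, by 0.05. Erc2, a scaffold that binds Rim, differed by 0.06 and Ppfia3, a liprin, by −0.05.

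Rab3a, the main vesicle GTPase of the forebrain, was the only member at an unadjusted p below 0.05. It read 13.33 and 13.32 with fluoxetine and 13.28 and 13.17 without. Both fluoxetine arrays were higher, by 1.08-fold (log2 difference 0.11, SE 0.04, unadjusted p = 0.0448, adjusted p = 0.708 by limma), with untreated replicate 2 as the low value. Without untreated replicate 2 the difference was 0.05, and without untreated replicate 1 it was 0.16. Leaving out fluoxetine replicate 1 or 2 gave 0.10 or 0.11. This probe set bears the suffix that Affymetrix gives to sets whose probes can match other transcripts. The brightest Stx1a set and a further Syp set bear the same suffix. The other Rab3a probe set read 12.44 and 12.46 against 12.45 and 12.47, a difference of −0.01. The isoforms Rab3b and Rab3c differed by −0.0049 and 0.06.

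The vesicular glutamate transporters, which load vesicles with glutamate, did not differ beyond the spread of the arrays. Slc17a7, the form of cortical pyramidal neurons, read 9.51 and 9.46 with fluoxetine and 9.46 and 9.49 without (difference 0.01, SE 0.06). Slc17a6, the form of thalamic and other subcortical neurons, read 8.59 and 8.54 against 8.33 and 8.85, so that both fluoxetine arrays lay between the untreated ones (difference −0.03, SE 0.15). Leaving out untreated replicate 2 gave 0.23 (unadjusted p = 0.0321 by limma) and leaving out untreated replicate 1 gave −0.28 (unadjusted p = 0.013). The 7 thalamic markers averaged 7.44 and 7.46 against 7.38 and 7.49, and their part in its value was not tested.

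Genes of vesicle retrieval had a median of −0.0018 over 3 members. Dnm1, the GTPase that cuts vesicles from the membrane, read 13.24 and 13.30 with fluoxetine and 13.28 and 13.29 without (difference −0.02, SE 0.04). Synj1, a phosphatase that takes part in vesicle uncoating, differed by −0.0018. Amph, which recruits dynamin, read 12.22 and 12.23 against 12.22 and 12.21, an arrangement without overlap at a difference of 0.01.

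The further probe sets of the same genes read differently. They are the dimmer ones by construction. Of all 55, 21 were higher and 0 lower by the same unadjusted threshold (38.2%, where 9.81% of all 16752 further probe sets were higher and 2.66% lower). Their median difference was 0.12, against 0.01 over all further probe sets. The calls came from 15 members and all from the 35 probe sets above the median level of 7.87. Of these 35, therefore, 21 were higher; the fluoxetine pair lay wholly above the untreated pair in 26 (74.3%) and wholly below in 1. Over all 5132 further probe sets above that level, 19.9% passed that threshold upward and 0.974% downward. Some other lists leaned upward too. Of their further sets above the median level, those higher were 7 of 12 for astrocyte markers, 4 of 4 for endothelial and mural markers (median 0.38), 3 of 8 for neuron markers, 12 of 43 for other vesicle release genes, 6 of 21 for endocytosis genes and 3 of 11 for the proton pump. The count was 2 of 2 for inhibitory neuron markers, 1 of 5 for cortical excitatory markers and 2 of 13 for oligodendrocyte markers (median −0.006). It was 0 of 4 for microglia markers, 0 of 3 for striatal markers and 0 of 2 for thalamic markers. The lists were not tested against each other, and the lean is not shown to be particular to the release machinery. Over all 5132 further probe sets above the median level, both fluoxetine arrays were above in 40.1% and below in 9.80%. None of the 55 passed a limma fit adjusted over all 34945 probe sets (lowest adjusted p = 0.331). The 20 below the median level had a median difference of 0.04 and a range of −0.37 (Nsf) to 0.29 (Rab3c), with 0 past the threshold. Without fluoxetine replicate 1 the count of 21 was 7, and it was 11 without the intensity trend.

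**Figure D2:**
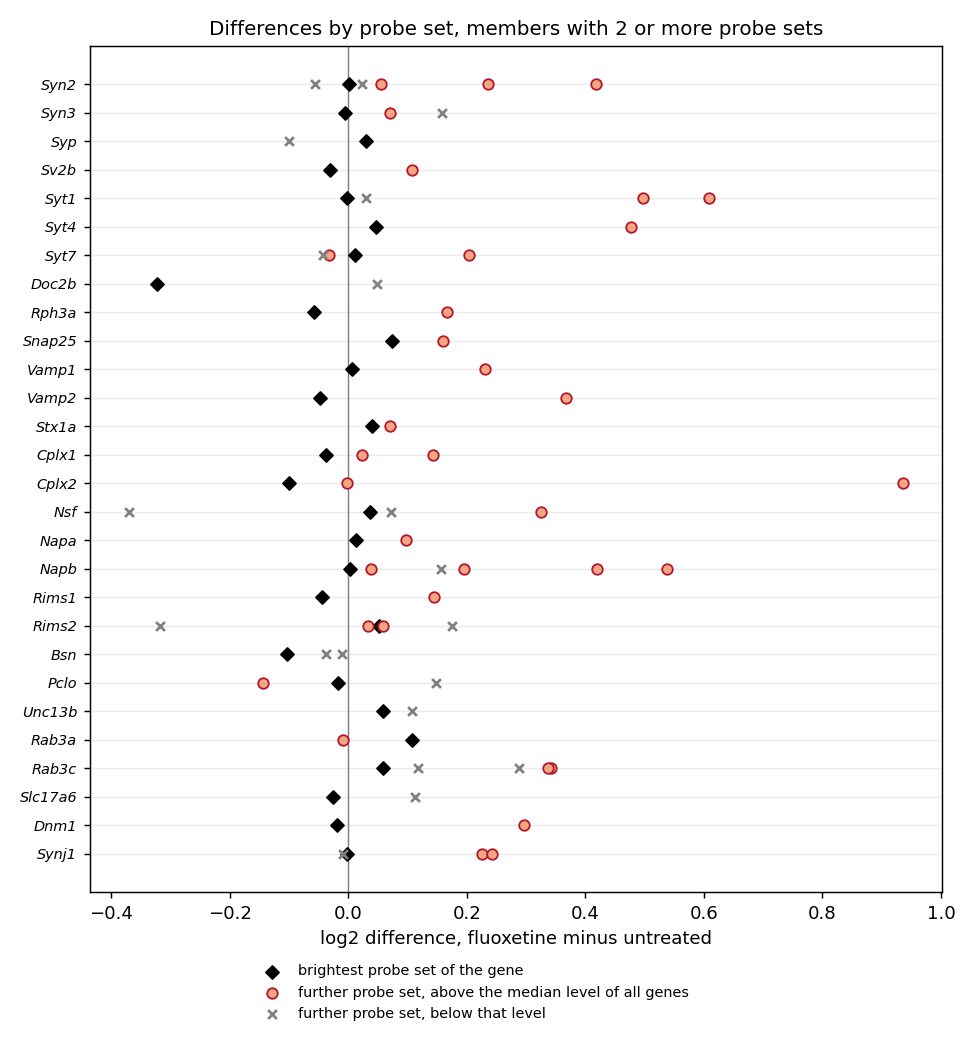
Log2 difference of fluoxetine minus untreated for every probe set of the 28 members with 2 or more. Black diamonds are the brightest probe sets, used for the results by gene; red circles are further probe sets above the median level and grey crosses those below it. Most diamonds lie near 0, while 31 of the 35 circles lie to the right of 0.

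Napb had 6 probe sets, more than most members. Its brightest read 13.02 and 12.99 with fluoxetine and 12.99 and 13.02 without, level across the arrays. Its probe set 1452444_at read 11.69 and 11.39 against 11.05 and 10.96, which is 1.45-fold higher (log2 difference 0.54, SE 0.09), and 1427470_s_at read 12.05 and 11.84 against 11.56 and 11.49, which is 1.34-fold higher. In both, fluoxetine replicate 1 was the highest and untreated replicate 2 the lowest. The sets 1450888_at and 1423172_at differed by 0.19 and 0.04.

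Syt1 showed the same division. Its brightest probe set differed by −0.0020, while 1431191_a_at read 10.82 and 10.42 with fluoxetine, against a mean of 10.01 in the untreated pair (1.53-fold higher, log2 difference 0.61, SE 0.12). Its set 1421990_at read 11.66 and 11.33 against 11.13 and 10.88, a difference of 0.50 (SE 0.12). Syn2, the brightest set of which was level, had 1449030_at at 11.66 and 11.46 against 11.19 and 11.09 (difference 0.42, SE 0.07) and 1460230_at with a difference of 0.24, but 1435511_at with one of 0.06. Syt4 had a second set at 10.97 and 10.59 against 10.37 and 10.24 (difference 0.48, SE 0.12). Dnm1 had one at 10.01 and 9.93 against 9.65 and 9.70 (difference 0.30, SE 0.06).

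**Figure D3:**
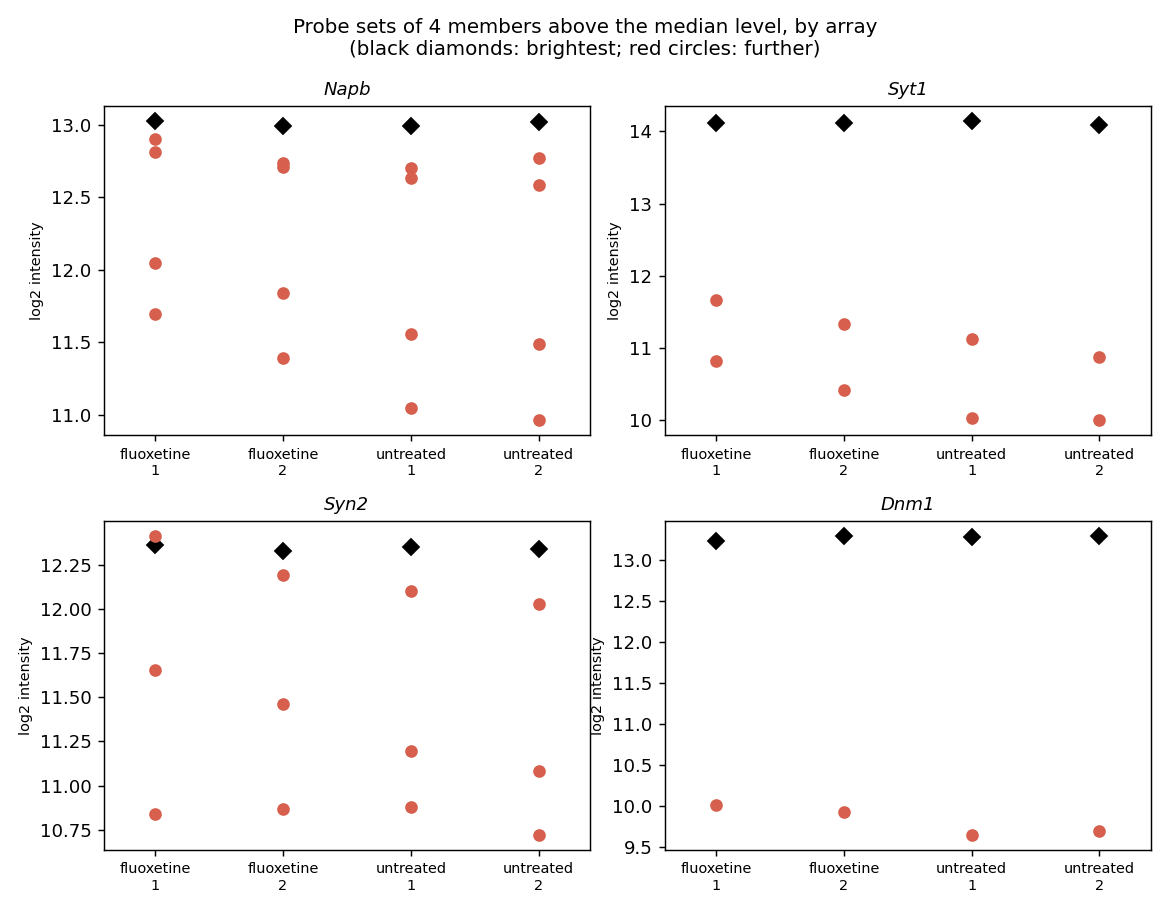
Log2 intensity on each array of the probe sets of Napb, Syt1, Syn2 and Dnm1 that lie above the median level, with the fluoxetine arrays at the left. Black diamonds, the brightest set of each gene, are level over the 4 arrays; red circles are further sets, several of which are highest on fluoxetine replicate 1 and lowest on untreated replicate 2.

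The largest difference was in Cplx2, whose set 1421477_at read 12.39 and 12.04 with fluoxetine and 11.80 and 10.75 without (1.91-fold higher, log2 difference 0.94, SE 0.30), while its brightest set differed by −0.10 and the remaining one by −0.0027. The low value was untreated replicate 2. Among the recycling and fusion factors, the second set of Nsf read 12.40 and 12.20 against 12.08 and 11.87 (difference 0.33, SE 0.09) and that of Vamp2 9.10 and 9.14 against 8.57 and 8.93 (difference 0.37, SE 0.12). Of the further sets above the median level, both of Synj1 differed by 0.22 and 0.24 and both of Rab3c by 0.34. The Synj1 set below that level differed by −0.0094. Smaller differences at an unadjusted p below 0.05 were those of Vamp1 (0.23), Syt7 (0.20), Rph3a (0.17), Snap25 (0.16) and Cplx1 (0.14). The exceptions included Pclo, where a further set differed by −0.14, Rims2, with 0.03 and 0.06, Stx1a with 0.07 and Rab3a with −0.01. Others differed in sign from their gene's brightest set without passing the threshold: Rims1 (0.15), Sv2b (0.11), Syn3 (0.07), Syt7 (−0.03) and a second set of Cplx1 (0.02). So did sets below the median level of Syn3 (0.16), Pclo (0.15), Slc17a6 (0.11), Syp (−0.10), Syn2 (−0.06), Doc2b (0.05), Syt7 (−0.04), Syt1 (0.03), Nsf (−0.37) and Rims2 (−0.32). By role, 9 of 17 further sets were higher among SNAREs and their recycling factors, 5 of 9 among calcium sensors, 3 of 4 in retrieval, 2 of 5 among the Rab3 genes and 2 of 9 among vesicle proteins. For active zone genes this count was 0 of 10 and for the glutamate transporters 0 of 1. All calls came from sets above the median level, which were 14 of the 17 among SNAREs, 6 of 9 among calcium sensors, 3 of 4 in retrieval, 3 of 5 among Rab3 genes and 5 of 9 among vesicle proteins, but 4 of 10 among active zone genes and 0 of 1 among transporters. Over all genes, 19.9% of such sets were higher, and roles were not tested against each other.

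The division within genes was also read as a gap, in a fit added after the division was seen in these same data. A gap is the log2 intensity of a further probe set minus that of its gene's brightest set on the same array. It does not depend on the scaling of arrays by a constant. Where the brightest set is level, the gap repeats the difference of the further set and is no separate support. In a limma fit over all 16752 gaps, 22 of the members' 35 gaps above the median level were higher with fluoxetine at an unadjusted p below 0.05 and 0 were lower (62.9%, where 16.5% of all such gaps were higher and 4.05% lower). The median gap differed by 0.19 in members and by 0.04 over all further sets above that level. None passed the adjustment with all arrays, where 1 of all 16752 gaps did. The members' count moved when single arrays were left out, and the share over all gaps in those fits is not given here. The lowest adjusted p among members was 0.0821, for the sets of Napb and Syn2 named above, followed by 0.0869 for Syt1. The gap differences were 0.53 (SE 0.08) and 0.42 (SE 0.07) in Napb, 0.42 (SE 0.07) in Syn2 and 0.61 (SE 0.11) in Syt1. Several sets of a gene share its transcripts and are not independent, and the 22 came from 16 members. Without fluoxetine replicate 1 the count was 14 and without the intensity trend 8.

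**Figure D4:**
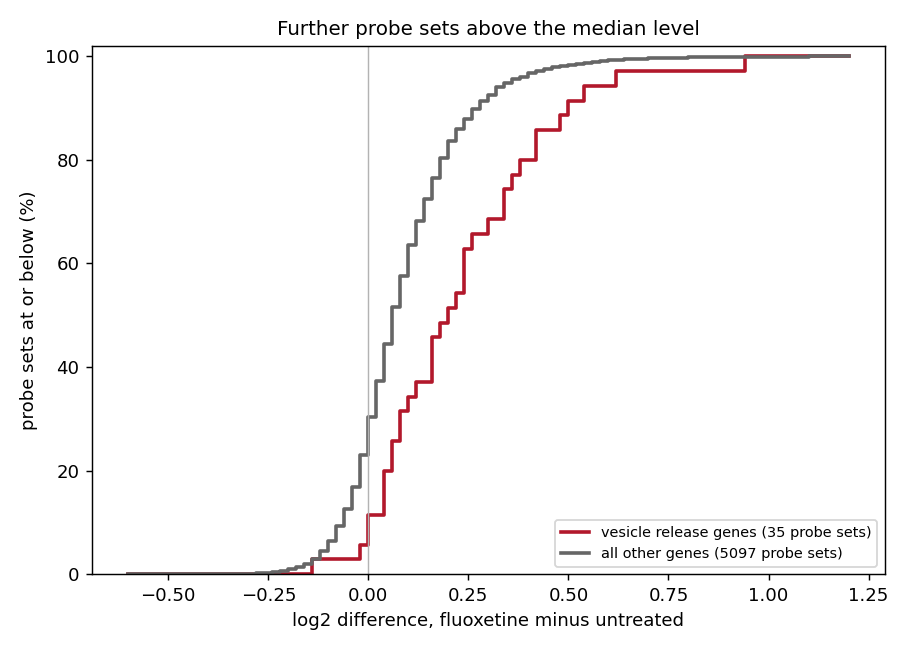
Cumulative share of further probe sets above the median level by their log2 difference of fluoxetine minus untreated, for the vesicle release genes (35 probe sets, red) and all other genes (5097 probe sets, grey). The red curve lies to the right of the grey one over most of its range, with medians of 0.19 for the members and 0.06 over all such probe sets.

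Values of labelling and of single arrays are given beside these further sets. Of the 35, 28 (80.0%) were highest on fluoxetine replicate 1 and 19 (54.3%) lowest on untreated replicate 2, against 49.7% and 21.6% of all further sets above the median level. On untreated replicate 1, 12 (34.3%) of the 35 were lowest, against 51.1% of all such sets. The poly-A control transcripts, bacterial RNAs spiked in before labelling, differed by 0.28 in their 5′ and 0.17 in their 3′ probe sets (medians over 8 sets each). In 5 of 8 pairs the 3′ minus 5′ signal was smaller on both fluoxetine arrays, and in 0 larger. Its median over the 8 pairs was 1.52 and 1.49 with fluoxetine and 1.66 and 1.53 without. The highest of these medians was on untreated replicate 1. For the mouse control Actb the 3′ minus 5′ signal was 0.41 and 0.40 with fluoxetine against 0.49 and 0.50, and for Gapdh −0.32 and −0.29 against −0.29 and −0.23. For Tfrc it was 1.79 and 1.67 against 1.71 and 1.44, in the other direction by group mean with overlap, as for the pyruvate carboxylase control at 2.77 and 2.83 against 2.51 and 2.80. Where each probe set lies along its transcript was not analysed here, and the part of these values in the division was not tested.

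The rest of the pathway was read from 3 lists that hold no member. Their counts stand against 3.45% of all genes higher and 3.51% lower, or 5.73% and 2.17% of genes above the median level. Of 51 measured genes of vesicle release, from a list of 56, 4 were higher and 1 lower by the unadjusted threshold, with a median difference of 0.01. Apba2, the Mint2 adaptor that binds Munc18, read 10.83 and 10.58 with fluoxetine and 10.37 and 10.27 without (difference 0.39, SE 0.09). Syt16 differed by 0.27 (SE 0.09), Stxbp6, the SNARE-binding protein amisyn, by 0.18 (SE 0.07) and Snap23, a broadly expressed relative of Snap25, by 0.34 (SE 0.13). Syt6 read 6.01 and 5.94 against 6.40 and 6.42, a difference of −0.44 (SE 0.12). Cadps2, the sixth by p, differed by −0.10. None of these passed the adjustment over all genes (lowest adjusted p = 0.696 by limma).

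Of 23 measured genes of endocytosis, from a list of 24, 1 was higher and 2 lower by that threshold (median difference −0.0046). Dnm3, a dynamin also found in dendritic spines, read 12.14 on both fluoxetine arrays and 12.28 and 12.29 on the untreated arrays (difference −0.14, SE 0.04, adjusted p = 0.696 by limma). Ap2b1, a subunit of the clathrin adaptor AP-2, differed by −0.11 (SE 0.05), and Hspa8, the chaperone that removes clathrin coats, by 0.09 (SE 0.03). Dnm2, Ap2a2 and Ap2a1, next by p, differed by −0.19, −0.07 and −0.10. Of 12 measured subunits and accessory proteins of the proton pump that energises vesicle filling, from a list of 13, 3 were higher and 0 lower (median 0.02). They were Atp6v1h (0.14, SE 0.04), Atp6v1d (0.14, SE 0.05) and Atp6v1g2 (0.09, SE 0.04), all subunits of the cytosolic sector. Atp6ap2, Atp6v0a1 and Atp6v1c1, next by p, differed by −0.06, −0.08 and 0.03.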

How the data were processed

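RNA from 4 arrays was compared, 2 fluoxetine and 2 untreated, grouped by the treatment label. Biotin-labelled RNA was hybridised to 3′ expression arrays per the labels' protocols. The authors deposited log2 intensities for each probe set, made with RMA through the affy package, per the submitters' processing notes; versions are not given in the sources used here. They ran from −0.08 to 15.14, with array medians of 6.44 to 6.50. The table held 45101 probe sets. Those with 1 gene symbol in the platform annotation (34945) were used, and 932 with several symbols, 9160 without one and 64 controls were not tested. The members and lists were chosen with earlier results of these data known, so that no list was tested as a whole.

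Each gene's probe set with the highest mean was fitted with limma 3.58.1 in R 4.3.3 (lmFit, eBayes with an intensity trend; 2 residual and 5.15 prior degrees of freedom), two-sided, with Benjamini-Hochberg adjustment over 18193 genes. All probe sets, and the gaps within genes, were fitted the same way, the trend of the gaps following the further set's level; these fits were added after seeing the data. The code was checked on simulated data. The number of arrays limits the precision, and replicate numbers pair no arrays. Values by array are given for members at an unadjusted p below 0.05, those with a difference of at least 0.15 and the member of smallest p in each role, and others were added after their values were seen; up to 6 genes by p are named for each other list. Promoters came from RefSeq, build GRCm38.p6. Alternatives were another normalization, other probe sets, no trend, a level filter and leaving out each array.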

Additional observations from a re-analysis of the deposited data

Results flagged for a closer look

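The poly-A control transcripts, bacterial RNAs added before labelling and used in no comparison by gene, stood higher on the fluoxetine arrays. All 24 of their probe sets had a positive difference, with a median of 0.24 on the log2 scale of fluoxetine minus untreated. They were listed because they are a signal outside the measured genes that was above its level on the untreated arrays.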

How the results depend on the processing

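The count of members past an adjusted p of 0.05 was 0 in each alternative. Of the 41 members at an unadjusted p below 0.05, those higher numbered 1 as reported, 0 after another quantile normalization and without the intensity trend, 2 among genes above the median level, 8 with the mean of a gene's probe sets and 11 with its most variable set, and 0 to 1 with each array left out. Those lower numbered 0 as reported, 1 after quantile normalization and 0 to 3 with each array left out. The median of 0.0027 was 0.0494 with the mean of the probe sets and 0.107 with the most variable set. Over all genes, 628 were higher and 638 lower; the counts were 833 and 725 with the mean, 1187 and 584 with the most variable set, 392 and 913 without the trend, and 181 to 909 and 188 to 1151 with each array left out. Of the 55 further probe sets, 21 were higher; 11 were so without the trend and 7 to 17 with each array left out, and the count lower was 1 after quantile normalization, 1 without the trend and 0 to 1 with each array left out. Their median of 0.12 was 0.19 above the median level. Of the gaps, 22 were higher, 8 without the trend and 14 to 20 with each array left out; 1 was lower after quantile normalization, 1 without the trend and 0 to 1 with each array left out. Gaps past an adjusted p of 0.05 numbered 0 as reported and 0 to 16 with each array left out, 16 of them without fluoxetine replicate 2 and 7 without fluoxetine replicate 1. Members whose difference changed sign numbered 10 of 41 after quantile normalization, 8 after subtracting medians, 12 with the mean of the probe sets (4 of them at an unadjusted p below 0.05), 15 with the most variable set (6 of them) and 6 to 10 with each array left out. The cause was not tested. They included 4 of the 8 members followed through each alternative. Dnm1 differed by 0.0163 after subtracting medians, 0.139 with the mean, 0.297 with the most variable set and −0.052 to 0.0122 with each array left out. Slc17a6 differed by 0.0098, 0.0434 and −0.28 to 0.23 under subtraction, the mean and the left-out arrays. Doc2b differed by 0.0489 with its most variable set and −0.68 to 0.0346 with each array left out, and Sv2c by −0.74 to 0.0393. An array left alone in its group is assumed to vary like the other group. For further probe sets and gaps, the share called over all genes with an array left out is not given here. The members' counts in those fits, including gaps past an adjusted p of 0.05, therefore stand against no background. They show how far the counts moved with the fit and are not a result about the members. No paired analysis was possible because the labels give no number that pairs arrays across groups. With 2 arrays a group, differences of the size seen in most members could not be told from 0.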
